A study of Oryza sativa with 8 samples.

Results

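The genes described here act in the breakdown, synthesis and perception of abscisic acid in rice (Oryza sativa). They are the hydroxylase genes ABA8OX1, ABA8OX2 and ABA8OX3, the epoxidase gene ZEP, the receptor gene PYL11 and the transcription factor gene AREB1. A probe set, the group of short probes that together report a transcript on an Affymetrix array, was included when its annotation named 1 of these 6 genes by symbol or synonym. The probe set of ABA8OX1 was in addition fixed by its identifier, whatever its annotation. The rule so completed gave 5 of the 57194 probe sets, 1 for each of 5 genes. No probe set was annotated to ABA8OX3 in the table used here, and its signal was not analysed. All 5 probe sets passed the filter on dim signals.

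By locus the genes were LOC9269675 for ABA8OX1 (also listed as CYP707A5), LOC4345810 for ABA8OX2 (CYP707A6), LOC4347261 for ABA8OX3 (CYP707A7), LOC4335984 for ZEP (ABA1), LOC4338104 for PYL11 (PYL5) and LOC4330838 for AREB1 (BZIP23). By the array maker's naming, the ending of the ABA8OX2 probe set marks probes that can be shared by several transcripts, so signal from relatives of that gene cannot be told apart from its own. Each gene had a single probe set, which leaves no second reading of the same transcript.

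Total RNA of shoots and leaves was measured on 8 one-colour arrays, 2 in each of 4 groups. ZH11 normal was the wild-type japonica cultivar Zhonghua 11 at the 4-leaf stage, sampled before any cold, and ZH11 cold was the same cultivar after 24 h at a constant 4 °C under a light and dark cycle. OE normal and OE cold were plants of that cultivar carrying an OsTMF overexpression construct, sampled at the same points. Each OE group held 1 array of line OE-24 (replicate 1) and 1 of line OE-29 (replicate 2), whereas the ZH11 replicates were independent biological samples. The labels do not give the promoter that drives OsTMF. Because normal plants were collected ahead of the chilling, the effect of cold cannot be told apart from that of the added growth time or of the chamber.

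Abscisic acid is the hormone through which plants close stomata, hold seeds dormant and respond to drought, salt and cold. It is made from carotenoids, with zeaxanthin epoxidase at an early step in the plastid, and it is inactivated mainly by cytochrome P450 hydroxylases of the CYP707A family. The hormone binds receptors of the PYL family, which then inhibit clade A protein phosphatases. This frees members of the SnRK2 kinase family, called SAPK in rice, to phosphorylate bZIP transcription factors. Those factors switch on genes for dehydrins and other protective proteins.

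The array medians lay between 27.2 and 28.2, on signals that ran from 2.8 to 15743.5. Leaf marker genes, as a check of the labelled tissue, were bright: 5 of 5 matched genes were tested, with mean signals from 1632.8 to 14745.3. Their summed signal was 44072.3 in ZH11 normal and 43595.9 in OE normal, against 17011.3 in ZH11 cold and 17711.3 in OE cold. The 5 leaf markers did not move together. CAB2R, LHCP, PORB and RCABP69 fell in both genotypes, with log2 changes from -3.67 (LHCP) to -3.25 (PORB) in ZH11. RBCS, which makes up most of the cold sums, did not pass in limma (-0.06 in ZH11, adjusted p = 0.348). Its signals ran from 14112.9 to 15400.2, near the highest of the series, where a change may be understated. The 5 matched root markers summed to between 216.1 (ZH11 normal) and 356.8 (OE cold), with LSI2 and PHT1-6 below the filter. The 6 matched seed storage markers summed to 1871.8 in ZH11 normal, 1850.0 in OE normal, 913.3 in ZH11 cold and 1060.8 in OE cold, most of it from GLB1, while GLUA1, GLUA3 and GLUB4 were below the filter. The part of these shifts in the results below was not tested. In whole shoots, fewer cells of a type and less RNA per cell cannot be told apart.

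Chilling moved the 2 hydroxylase genes in opposite directions, raised AREB1, and lowered ZEP, the epoxidase gene, in both genotypes. Before cold no gene of the 5 differed between the genotypes past the threshold. After cold ABA8OX1 and ZEP were higher in the overexpressing plants. The plot of signals by array shows each measurement.

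**Figure D1:**
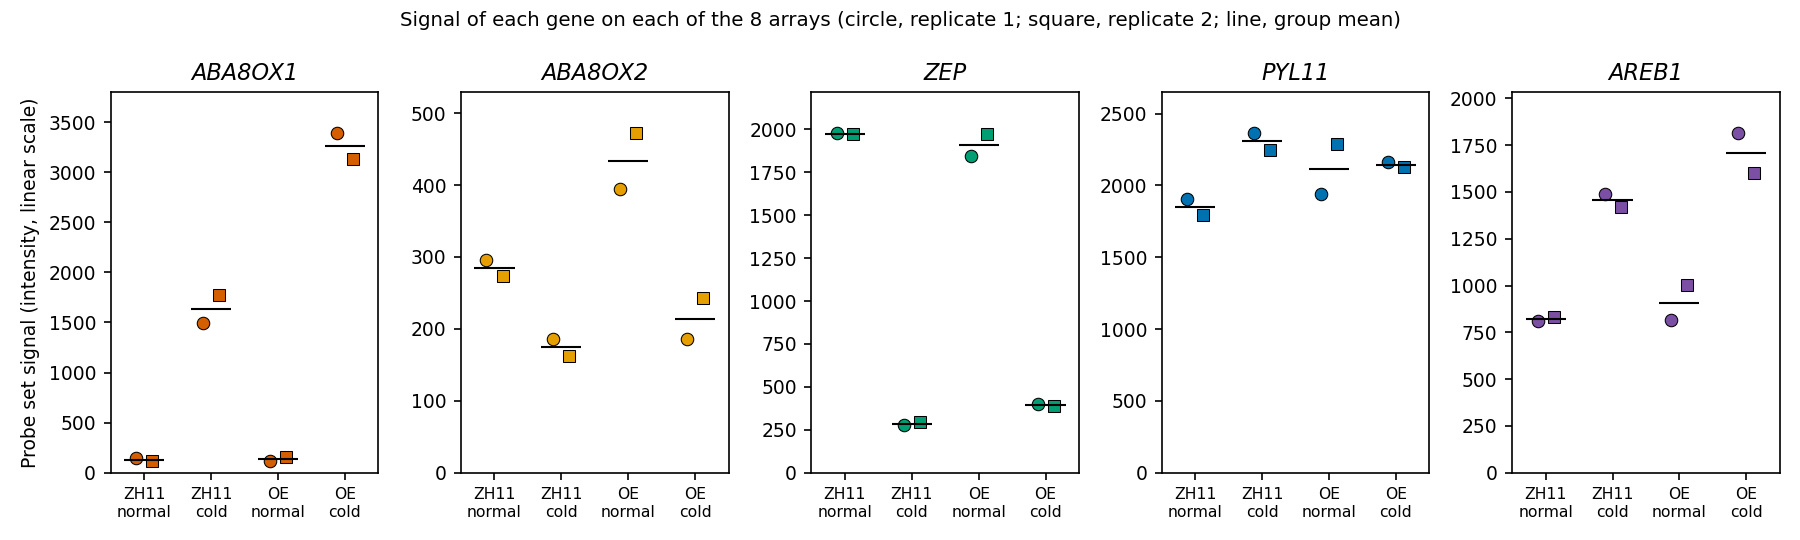
Probe set signal (linear intensity, vertical axis, starting at 0 and scaled separately for each gene) in the 4 groups. Circles are replicate 1 (line OE-24 in the OE groups), squares replicate 2 (line OE-29), and lines are group means of 2 arrays. ABA8OX1 lies between 113.7 and 156.7 before cold and is highest in OE cold, ZEP falls to 286.8 and 394.5, and PYL11 stays between 1792.8 and 2366.4 on all 8 arrays.

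ABA8OX1 encodes a hydroxylase that starts the inactivation of abscisic acid. Its signal before cold was 148.2 and 113.7 in the ZH11 replicates and 119.6 and 156.7 in lines OE-24 and OE-29. After cold it was 1491.7 and 1779.1 in ZH11, and 3393.4 and 3133.8 in OE-24 and OE-29. The normal groups overlapped, every cold array lay above every normal array, and both OE cold arrays lay above both ZH11 cold arrays. In ZH11 the gene rose by 3.49 ± 0.14 (SE) on the log2 scale, an 11.3-fold change (limma, adjusted p = 1.52e-08). Here and below, changes are of log2(signal + 16), so changes of dim probe sets are understated, and adjusted p-values are corrected over 34313 tested probe sets. In OE it rose by 4.42 ± 0.14, a 21.4-fold change (adjusted p = 3.59e-09). Only 0.367% of the tested probe sets rose by more than this gene in ZH11 and 0.146% in OE, counted by the size of the fitted change.

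The genotypes did not separate for ABA8OX1 before cold, where the difference was 0.07 with a 95% confidence interval from -0.25 to 0.39 (adjusted p = 0.964). After cold the gene was higher in OE by 0.99 ± 0.14, a 1.99-fold difference (adjusted p = 0.00221). Against the ZH11 cold mean, OE-24 stood 1.05 higher and OE-29 0.94 higher. The difference itself between the cold changes, the interaction, was 0.93 ± 0.20 with an interval from 0.48 to 1.38, and it did not pass after adjustment (adjusted p = 0.0667, unadjusted p = 0.000971). The cold change was 4.65 in OE-24 and 4.19 in OE-29, while over the pairings of ZH11 arrays it ran from 3.2 to 3.79. The interaction passed with a pseudocount of 64 (adjusted p = 0.0329), without ZH11 normal replicate 2 (0.0495) and without OE normal replicate 2 (0.040), and over the other alternatives its adjusted p reached 0.284.

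ABA8OX2, a hydroxylase gene of the same family, went the other way. Before cold its signal was 295.3 and 273.9 in ZH11, and 394.3 and 472.6 in OE-24 and OE-29. After cold it was 186.5 and 162.5 in ZH11, and 185.4 and 243.0 in the lines. Both normal groups lay above both cold groups, the OE normal arrays above the ZH11 normal ones, and the cold groups overlapped. In ZH11 the gene fell by 0.66 on the log2 scale (SE 0.14, 1.58-fold, adjusted p = 0.00176). In OE it fell by 0.97 (SE 0.14, 1.96-fold, adjusted p = 0.000133). Falls of this size were common, since 19.6% of tested probe sets fell further in ZH11 and 9.75% in OE.

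The higher ABA8OX2 signal of OE before cold, 433.5 ± 55.4 (SD, n = 2) against 284.6 ± 15.1 (SD, n = 2), amounted to 0.58 ± 0.14 on the log2 scale and did not pass (adjusted p = 0.104). With OE-24 and OE-29 entered as a replicate block within OE it did pass, at the same size (0.58 ± 0.10, adjusted p = 0.0175), while without OE normal replicate 2 the adjusted p was 0.433. After cold the difference was 0.26 with an interval from -0.04 to 0.57 (adjusted p = 0.232). The interaction was -0.31 with an interval from -0.74 to 0.12 (adjusted p = 0.519). OE-29 read higher than OE-24 in both treatments, by 0.25 before and 0.36 after cold.

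ZEP encodes zeaxanthin epoxidase, which works on xanthophylls upstream of abscisic acid and in the xanthophyll cycle that protects chloroplasts from excess light. Its signal before cold was 1979.6 and 1970.3 in ZH11, and 1843.2 and 1974.5 in OE-24 and OE-29. After cold it was 276.1 and 297.5 in ZH11, and 397.7 and 391.3 in the lines. The normal groups overlapped, and the cold groups lay far below them without overlap, ZH11 lowest. In ZH11 the gene fell by 2.72 (SE 0.07, 6.58-fold, adjusted p = 1.33e-09), and 0.382% of tested probe sets fell further. In OE it fell by 2.23 (SE 0.07, 4.69-fold, adjusted p = 4.14e-09), and 0.708% fell further.

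The ZEP signal left after cold was higher in OE by 0.44 ± 0.07, a 1.36-fold difference (adjusted p = 0.00459). In the same comparison 2 of the 5 leaf markers were also higher in OE, PORB by 0.50 ± 0.11 (adjusted p = 0.0162) and RCABP69 by 0.49 ± 0.13 (adjusted p = 0.0343), and their part in the ZEP difference was not tested. OE-24 stood 0.45 and OE-29 0.43 above the ZH11 cold mean, so the lines differed from each other by less than they did from ZH11. Without ZH11 cold replicate 1 the difference was 0.39 and no longer passed (adjusted p = 0.0618). Before cold it was -0.05 with an interval from -0.21 to 0.11 (adjusted p = 0.944). The interaction was 0.49 ± 0.10 with an interval from 0.26 to 0.72 and did not pass (adjusted p = 0.0604, unadjusted p = 0.000805), except without OE normal replicate 2 (0.54, adjusted p = 0.0478).

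PYL11 encodes a receptor of the PYL family. Its signal was 1903.2 and 1792.8 in ZH11 normal, and 2366.4 and 2246.1 in ZH11 cold. In OE-24 and OE-29 it was 1938.7 and 2291.8 before cold, and 2162.8 and 2126.0 after. The ZH11 groups did not overlap, while both OE cold arrays lay between the OE normal ones. The gene rose in ZH11 by 0.32 ± 0.08 (1.25-fold, adjusted p = 0.00672). That call was lost without ZH11 normal replicate 2 (adjusted p = 0.0507) or ZH11 cold replicate 1 (0.057).

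In OE the change of PYL11 was 0.02 with an interval from -0.16 to 0.21 (adjusted p = 0.823), made up of 0.16 in OE-24 and -0.11 in OE-29. The sign of this value changed with quantile normalization (-0.03) and without OE normal replicate 1 (-0.10). The interaction was -0.29 with an interval from -0.55 to -0.03 and did not pass (adjusted p = 0.294), so a difference in response between the genotypes was not shown. OE differed from ZH11 by 0.19 before cold (adjusted p = 0.512) and by -0.10 after (adjusted p = 0.438), neither past the threshold.

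AREB1 encodes a bZIP factor that binds abscisic acid response elements in promoters. Its signal before cold was 811.3 and 829.6 in ZH11, and 818.3 and 1000.8 in OE-24 and OE-29. After cold it was 1490.2 and 1420.7 in ZH11, and 1816.2 and 1601.0 in the lines. All cold arrays lay above all normal ones, and the OE cold arrays lay above the ZH11 cold ones. The gene rose by 0.81 ± 0.10 in ZH11 (1.76-fold, adjusted p = 3.87e-05). It rose by 0.90 ± 0.10 in OE (1.87-fold, adjusted p = 2.05e-05), by 1.13 in OE-24 and 0.67 in OE-29. Rises above these were found for 9.25% of tested probe sets in ZH11 and 8% in OE.

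The genotypes did not differ in AREB1 past the threshold. The difference was 0.14 before cold, with an interval from -0.08 to 0.36 (adjusted p = 0.809), and 0.23 after cold, with an interval from 0.01 to 0.45 (adjusted p = 0.16). The interaction was 0.09 with an interval from -0.22 to 0.40 (adjusted p = 0.836).

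**Figure D2:**
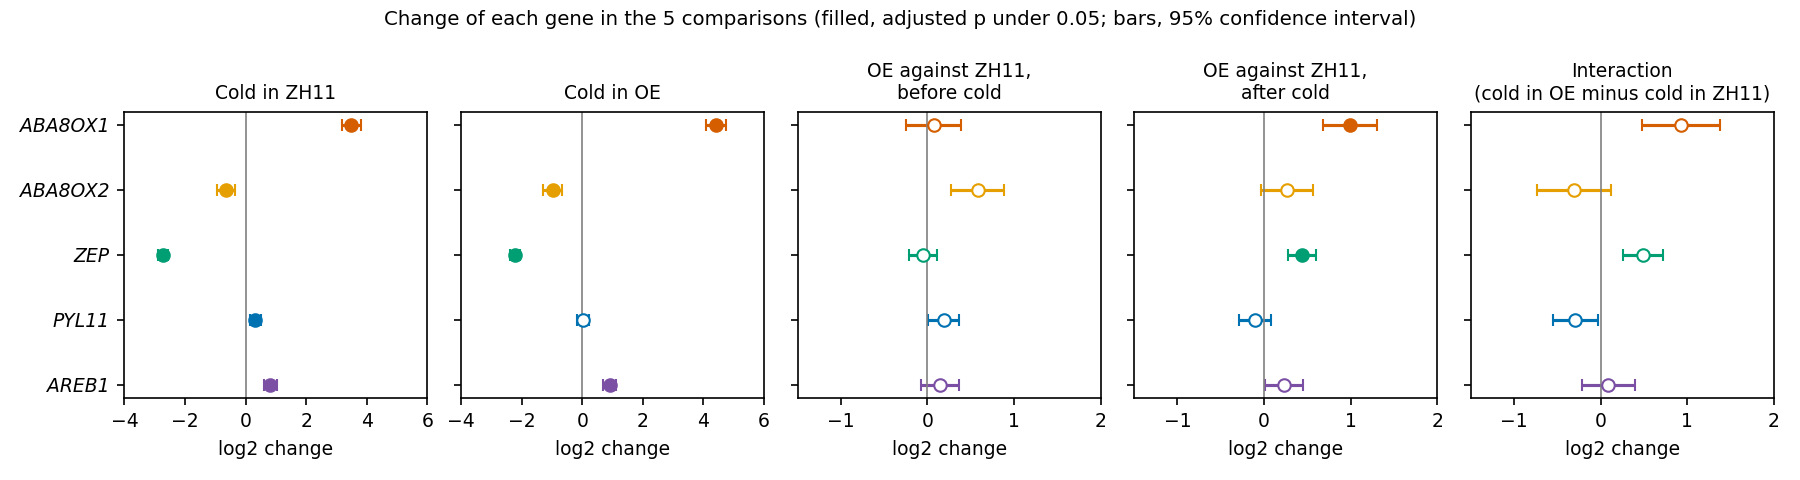
log2 change of each gene (horizontal axis) in the 5 comparisons, with 95% confidence intervals from limma as bars and filled points for an adjusted p under 0.05. The axis of the 2 cold panels runs from -4 to 6 and that of the other 3 panels from -1.5 to 2. ABA8OX1 (3.49 and 4.42) and ZEP (-2.72 and -2.23) stand farthest from 0 in cold, and they are the filled points after cold between genotypes.

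Over the whole array, calls were common in cold and less common between genotypes. The 5 genes were chosen with earlier results of these data known, so their counts beside these shares are a description only. In ZH11, 3 of the 5 genes rose and 2 fell, where 60.3% of tested probe sets passed, 26.3% higher and 34% lower. In OE, 2 rose, 2 fell and PYL11 did not pass, where 54.8% of tested probe sets passed, 22.9% higher and 31.8% lower. The groups did not overlap for 5 genes in ZH11 and 4 in OE, as for 83.4% and 75.1% of tested probe sets. In both genotypes 4 of the 5 changes kept the same call and direction. The share of all tested probe sets that did so was not counted, so this number has no background beside it. The cold changes of ZH11 and OE were measured on different arrays. Their calls were not independent, since the fit took its estimate of spread from all groups together.

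Between genotypes before cold, limma called 0 of 5 genes, against 1.2% of tested probe sets. An unadjusted p under 0.05 was found for 3175 of the 34313 tested probe sets and for 2 of the 5 genes, ABA8OX2 and PYL11. Those 2 genes were also the ones whose groups did not overlap, as held for 34% of tested probe sets. After cold 2 of 5 genes were called, both higher in OE, against 13.1% of tested probe sets called and 8.16% called higher. Without ZH11 cold replicate 1 the call of ABA8OX1 alone was left, and the count over all probe sets was 1147 (688 higher) in place of 4500 (2800 higher). The groups did not overlap for 4 genes, against 61.5% of tested probe sets. The interaction was called for 0 of 5 genes, against 1.13% of tested probe sets. Of the 5 genes, 3 (ABA8OX1, ZEP and PYL11) had an unadjusted p under 0.05 in limma, as did 4773 of the 34313 tested probe sets.

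**Figure D3:**
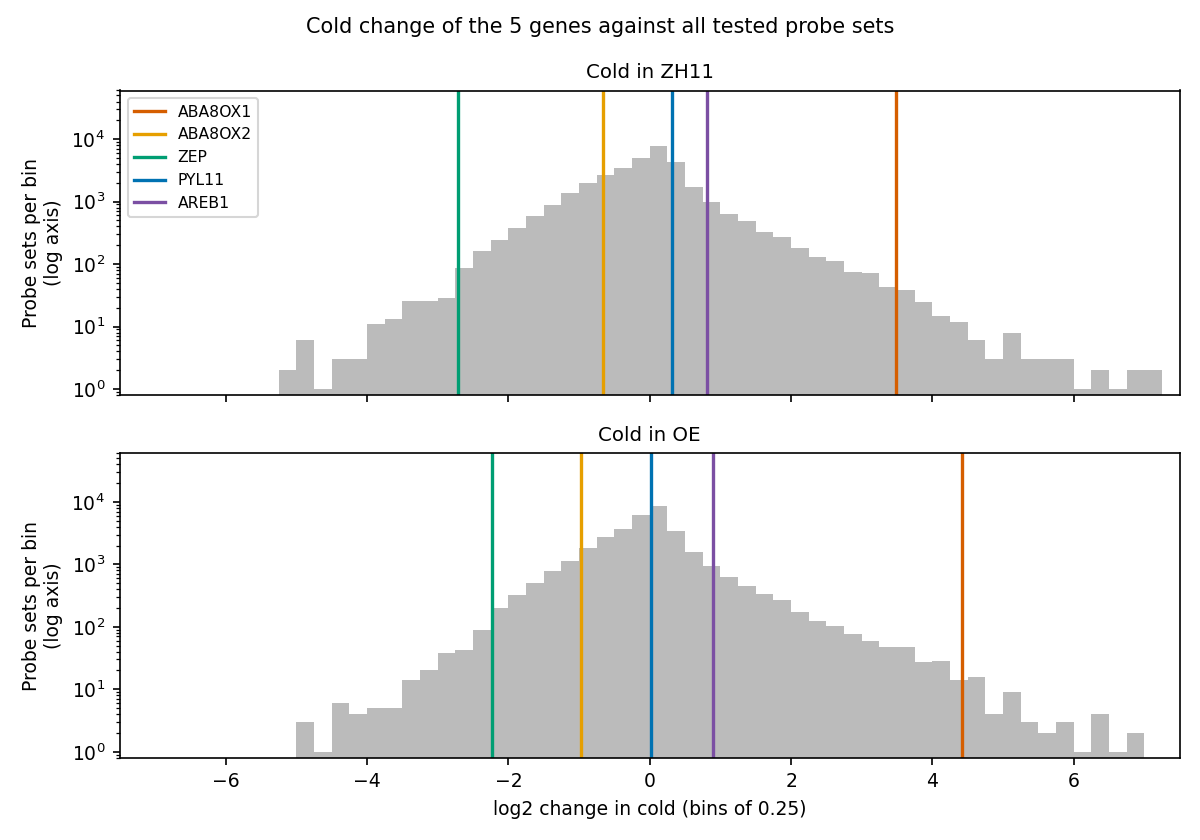
Number of tested probe sets (vertical log axis) by log2 change in cold, in bins of 0.25, for ZH11 (top) and OE (bottom), with coloured lines at the values of the 5 genes. ABA8OX1 lies in the upper tail and ZEP in the lower tail in both panels, and PYL11 lies at 0.32 in ZH11 and 0.02 in OE.

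Other genes of the pathway were taken from a list of symbols by role, of which 30 genes had a probe set and 29 were tested. The list was chosen with earlier results of these data known, so its counts beside those of all genes are a description only. In ZH11, 14 rose, 5 fell and 10 did not pass, with a median change of 0.17, while over all 15858 tested genes 25.8% rose, 45.2% fell and the median was -0.18. In OE, 12 rose, 4 fell and 13 did not pass, with a median of 0.14, against 25.6% and 41.7% of all genes and a median of -0.14. No other receptor gene of the list was matched, so PYL11 alone represents the receptors here.

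The synthesis genes that matched were the phytoene synthase genes PSY1, PSY2 and PSY3, which act at the entry to the carotenoid route far upstream of ZEP. No other synthesis gene of the list was matched, so apart from ZEP no later step of synthesis is represented here. All 3 phytoene synthase genes rose in both genotypes, opposite to ZEP. By the brightest probe set of each gene PSY2 rose most, by 2.78 ± 0.10 in ZH11 (mean signals 502.6 and 3533.9, adjusted p = 7.58e-09) and by 2.30 ± 0.10 in OE (adjusted p = 3.07e-08). A dimmer probe set of PSY1 gave more than PSY2, 2.90 in ZH11 and 2.64 in OE, where the brightest gave 0.92 and 0.72, so the size of the PSY1 rise and this order depend on the probe set.

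Of 7 clade A phosphatase genes, the negative regulators that the receptors inhibit, 4 rose and 1 fell in each genotype. PP2C68 rose by 2.87 ± 0.13 in ZH11 (adjusted p = 3.41e-08) and 2.38 ± 0.13 in OE (adjusted p = 1.48e-07). PP2C08 fell by 1.36 (SE 0.17, adjusted p = 4.58e-05) and 1.24 (SE 0.17, adjusted p = 0.000106). Of 10 SAPK kinase genes, 5 rose and 2 fell in ZH11, and 3 rose and 2 fell in OE. SAPK2 rose by 0.80 ± 0.06 in ZH11 and 0.82 ± 0.06 in OE, and SAPK7 fell by 2 (SE 0.13) and 1.5 (SE 0.13).

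The bZIP factor gene TRAB1, which also binds abscisic acid response elements, fell where AREB1 rose. Its changes were -0.79 ± 0.08 in ZH11 (adjusted p = 5.9e-06) and -0.59 ± 0.08 in OE (adjusted p = 6.34e-05). Of 8 response genes, 2 rose (LIP9 and RAB25) and 1 fell in ZH11, and the same 2 rose in OE. RAB25 was dim, with signals from 18.4 to 60.8. RAB16B, RAB16D and EMP1 were dim too, with signals from 16.2 to 38.1, and changes of such probe sets are understated. The dehydrin gene LIP9 rose by 2.43 ± 0.09 in ZH11 and 2.03 ± 0.09 in OE by its brightest probe set. Its dimmer probe sets gave 0.10 and 0.16 in ZH11. In OE they gave 0.38, which passed in limma (adjusted p = 0.0189), and 0.19, which did not (adjusted p = 0.232). RAB16C, a dehydrin gene of the RAB16 cluster, fell by 0.56 in ZH11 (SE 0.12, adjusted p = 0.00181) and did not pass in OE (-0.02, adjusted p = 0.918). That difference was not past the threshold as an interaction (0.55, adjusted p = 0.171).

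**Figure D4:**
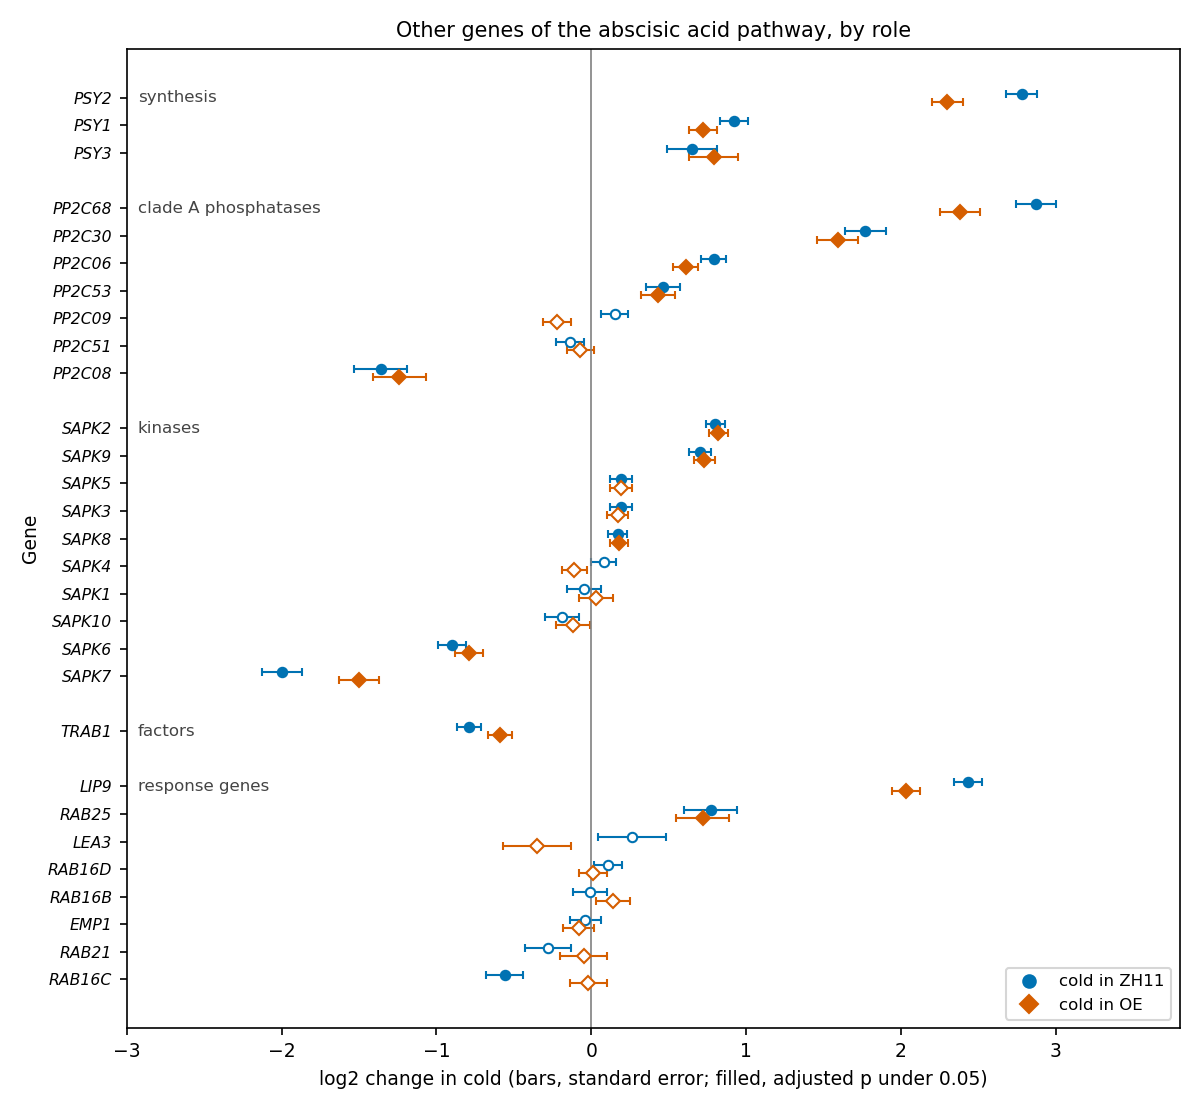
log2 change in cold (horizontal axis) of the 29 tested pathway genes, grouped by role, with standard errors as bars and filled symbols for an adjusted p under 0.05. Blue circles are ZH11 and orange diamonds OE. The phytoene synthase genes lie to the right of 0, PP2C68 and LIP9 rise by over 2 on the log2 scale in both genotypes, and SAPK7, PP2C08 and TRAB1 lie to the left.

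Between genotypes few genes of the pathway list were called. Before cold 1 of 29 genes was called, SAPK2 (0.29 ± 0.06, adjusted p = 0.0487), named after its value was seen, against 1.51% of all genes. Over 18 alternatives that count was 0 in 14, the replicate block over all arrays among them, and 2 with the replicate block within OE lines. After cold 4 genes were higher in OE and 1 lower, against 11.4% and 6.51% of all genes, and 2 genes were called, both higher, without ZH11 cold replicate 1, ZH11 cold replicate 2 or OE cold replicate 1. SAPK7 was higher by 0.82 ± 0.13 (adjusted p = 0.00423) and RAB16C by 0.80 ± 0.12 (adjusted p = 0.00242), and both kept the call in every alternative. SAPK2 was higher after cold as well, by 0.31 ± 0.06 (limma, adjusted p = 0.00815), close to its difference before cold. Its interaction was 0.02 (adjusted p = 0.936). TRAB1 was higher by 0.28 ± 0.08 (adjusted p = 0.0357), a call lost in 9 of 18 alternatives, with the replicate block over all arrays among them (adjusted p = 0.059). PSY2 was lower by 0.45 (SE 0.10, adjusted p = 0.0191), a call lost without any 1 of the 4 cold arrays (adjusted p from 0.0779 to 0.134). In limma the interaction was called for 0 of 29 genes, against 1.53% of all genes. An unadjusted p under 0.05 was found for 6 of the 29 genes, and for 4773 of the 34313 tested probe sets.

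The named genes whose signals followed these 5 most closely over the 8 arrays were found by the root mean square difference of mean-centred log2 signals, among 1729 candidates. The 8 arrays include the cold contrast, to which many probe sets responded, and closeness is given as a description only. For ABA8OX1 they were the glutaredoxin gene GRXC15, at 0.20, and LTR1, at 0.25. GRXC15 changed by 3.61 in ZH11 and 4.55 in OE. For ZEP they were OSA15, at 0.10, and the clock gene PRR73, at 0.15, which changed by -2.40 and -2.05. For ABA8OX2 they were the kinesin gene KIN7C and the protein disulfide isomerase gene PDIL1-1, both at 0.16, though neither had an OE normal signal as far above ZH11 (0.24 and 0.37). PYL11 was followed by the ubiquitin ligase gene SPL11, at 0.06, and bip105, at 0.07, and AREB1 by the flowering gene Ehd3 and BFRP, both at 0.08.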

How the data were processed

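The deposited values are probe set intensities on a linear scale; how the authors summarised and normalized them is not given in the sources used here, and the number of arrays limits the precision. Probe sets were named through the platform annotation and the synonyms of the RefSeq gene table (ASM3414082v1); 22436 of 57194 had 1 gene, 95 several and 34663 none. The synonyms ABA1 of TRAB1 and PT2 of a growth-regulating factor gene were not used as matches to the list.

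Signals were taken to log2 after adding 16, without rescaling. Probe sets with a mean over 8 arrays above the 40th percentile (17.6) were tested, 34313 in all. Group means were fitted with limma 3.58.1 (lmFit, eBayes with a trend) in R 4.3.3, over 4 groups with 4 residual degrees of freedom, and 5 comparisons were made, two-sided. A call needed a Benjamini-Hochberg adjusted p under 0.05 over all tested probe sets. A gene with several probe sets was represented by the brightest. The fit was also run on simulated data with independent noise and few changed probe sets. That setting differs from the cold comparisons, where most tested probe sets passed, so it does not test the calls given here.

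OE replicate numbers pair arrays by line, from the labels. Over tested probe sets the replicate differences before and after cold had a correlation of 0.128 in OE and -0.0202 in ZH11, whose numbers pair nothing. Blocked fits were alternatives.

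All probe sets of the 6 genes were named. For each role of the list the largest called rise and fall in cold and after cold were named. For each member the 2 closest named genes with a signal above the median of tested probe sets were given. The members and lists were chosen with earlier results of these data known.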

Additional observations from a re-analysis of the deposited data

How the results depend on the processing

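Alternatives were pseudocounts of 4 and 64, no filter, a filter at the 60th percentile, quantile normalization, median centring, replicate blocks over all arrays and within OE lines, no trend, a fit of only the compared groups, and leaving out each array. Of 787 values for single genes, 759 kept direction and side of the threshold, 16 lost a call, 5 gained one and 7 changed sign, none of the last being called. Leaving out arrays, ABA8OX1 before cold ran from -0.11 to 0.24, PYL11 in OE cold from -0.10 to 0.14, AREB1 before cold from 0 to 0.28 and its interaction from -0.06 to 0.23; quantile normalization gave -0.03 for PYL11 in OE.

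The count of the 5 genes called was 1 before cold with the replicate block within OE lines and 1 for the interaction with a pseudocount of 64; the block changed no other call among them. Leaving out arrays it was 4 to 5 in ZH11 cold, 4 in OE cold, 0 before cold, 1 to 2 after cold and 0 to 2 for the interaction. Over all probe sets the count before cold was 411, 226 in a fit of only the compared groups, and 152 to 835 leaving out arrays; after cold it was 4500 and 1147 to 6323, and for the interaction 388 and 71 to 477. The causes were not tested. No rescaling moved the median change by over 0.1.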

Other observations

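The spread between replicates differed among the genes. In ZH11 normal the ABA8OX1 replicates were 0.34 apart on the log2 scale, further than all but 4.25% of tested probe sets, where the median distance was 0.09. The ABA8OX2 signals of the lines after cold were 0.36 apart, a distance that 5.08% of tested probe sets exceeded. The ZEP replicates in ZH11 normal were 0.01 apart, and 95.9% of tested probe sets differed more. The median distance was largest in OE normal, at 0.14, where ABA8OX1, AREB1, ABA8OX2 and PYL11 were 0.35, 0.29, 0.25 and 0.24 apart, OE-29 above OE-24 each time. VP1, a further transcription factor gene of abscisic acid responses, was below the filter, with signals from 8.6 to 10.7.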
